A study of Homo sapiens with 12 samples.

Results

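The genes described here encode the extracellular matrix of human lung cancer cells and the integrins through which cells hold on to it. They form a list of 46 genes in 5 classes: collagens, laminins and nidogens, glycoproteins and matrix enzymes, integrins, and proteases with their inhibitors. The list was matched by gene symbol to the probe sets of an Affymetrix expression array, and the brightest probe set of each gene was taken to represent it. In this way 43 of the 46 genes were measured, among 18132 genes on the array, and all 43 were among the 16205 genes tested. The 3 others had no probe set of their own: COL17A1 and LAMA3 were not listed in the platform annotation used here, and ITGB6 was reached only by probe sets shared with LINC02478.

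The study reduced MARK2, a protein kinase with roles in cell polarity and microtubule dynamics, in 3 cell lines from non-small cell lung cancer, H1993, H1693 and H1650. Cells of each line received a lentivirus with a short hairpin RNA against MARK2 (knockdown) or the empty pLKO vector (control). Each of the 6 groups has 2 arrays, described in the labels as biological replicates, and p-values rest on the spread of these pairs. The sources used here do not name the hairpin sequence, the number of hairpins or whether cells were clones or pools.

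Epithelial cells rest on a basement membrane, a sheet woven from laminins and type IV collagen that nidogens and the proteoglycan perlecan hold together, whereas fibrillins, fibronectin and type VI collagen form fibres and filaments in the matrix beyond it. Integrins are paired alpha and beta chains in the cell membrane that bind these proteins outside the cell and the actin cytoskeleton inside it. Carcinoma cells make many of these proteins themselves, and metalloproteinases and their tissue inhibitors set how fast the matrix is broken down.

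Values are log2 signals, so a difference of 1 is a 2-fold difference in signal. A change is the knockdown mean minus the control mean of a line. Genes were called higher or lower at an adjusted p under 0.05 in limma's moderated test, adjusted over all genes tested. In cultures measured in bulk, fewer cells making a transcript and less transcript per cell cannot be told apart. Levels were compared only within a gene, since probe sets differ in brightness.

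MARK2 itself checked the labels. Its signal was 9.17 and 9.06 on the H1993 control arrays and 6.76 and 6.77 on the knockdown arrays, which is 19.6% of control (limma adjusted p = 6.47e-06). In H1693 it was 7.76 and 7.97 against 6.62 and 6.57, or 41.6% of control (limma adjusted p = 0.000258). In H1650 it was 6.07 and 5.80 against 5.92 and 5.37, the arrays overlapped, and the change of -0.29 did not pass the test (limma adjusted p = 0.156). The arrays also differed in RNA integrity: the 3′ minus 5′ signal of the GAPDH control probe sets was between -0.12 and 0.02 on the arrays of H1993 and H1693, between 2.28 and 3.07 in the H1650 controls and between 6.77 and 6.87 in the H1650 knockdown arrays. The part of RNA integrity in the H1650 results was not tested. All 6 epithelial markers were above a log2 signal of 5 in every group, and the fibroblast marker DCN and the leukocyte marker PTPRC were below it on all 12 arrays. The other leukocyte markers, CD3E, CD68 and CD79A, were above it on all 12 arrays. So were PDGFRB, COL1A1, COL1A2 and ACTA2 of the fibroblast and mesenchymal list, and the endothelial markers PECAM1, CDH5 and VWF. COL3A1 was above it on 9 arrays and LUM on 6. A signal above 5 therefore did not separate these lists.

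The lines differed widely in the control level of these genes. Among the 43 genes, the control level was highest in H1650 for 30, in H1993 for 9 and in H1693 for 4, and it was lowest in H1693 for 24. The control arrays also differed in RNA integrity. Their 3′ minus 5′ GAPDH signal was between 2.28 and 3.07 in H1650 and between -0.11 and 0.02 in H1993 and H1693. The part of RNA integrity in these levels was not tested. Between the highest and the lowest line, 19 genes spanned a log2 difference of at least 3, or 8-fold. TNC, the matricellular glycoprotein tenascin-C, had mean control signals of 12.41 in H1993 and 12.33 in H1650 but 4.06 in H1693, and the H1993 and H1650 arrays overlapped. NID1, which links laminin to type IV collagen, was at 3.28 in H1993, 9.84 in H1693 and 10.95 in H1650. SPARC, a collagen-binding matricellular protein, was at 5.73 in H1993, 7.49 in H1693 and 13.14 in H1650. EDIL3, a secreted ligand of integrins that contain ITGAV, had its lowest level in H1650, with 3.73 against 7.55 in H1993 and 7.76 in H1693. ITGB1, the beta chain shared by most matrix-binding integrins, differed by 0.14 between the lowest and the highest line, with means of 13.91 in H1993, 14.05 in H1693 and 13.97 in H1650.

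**Figure D1:**
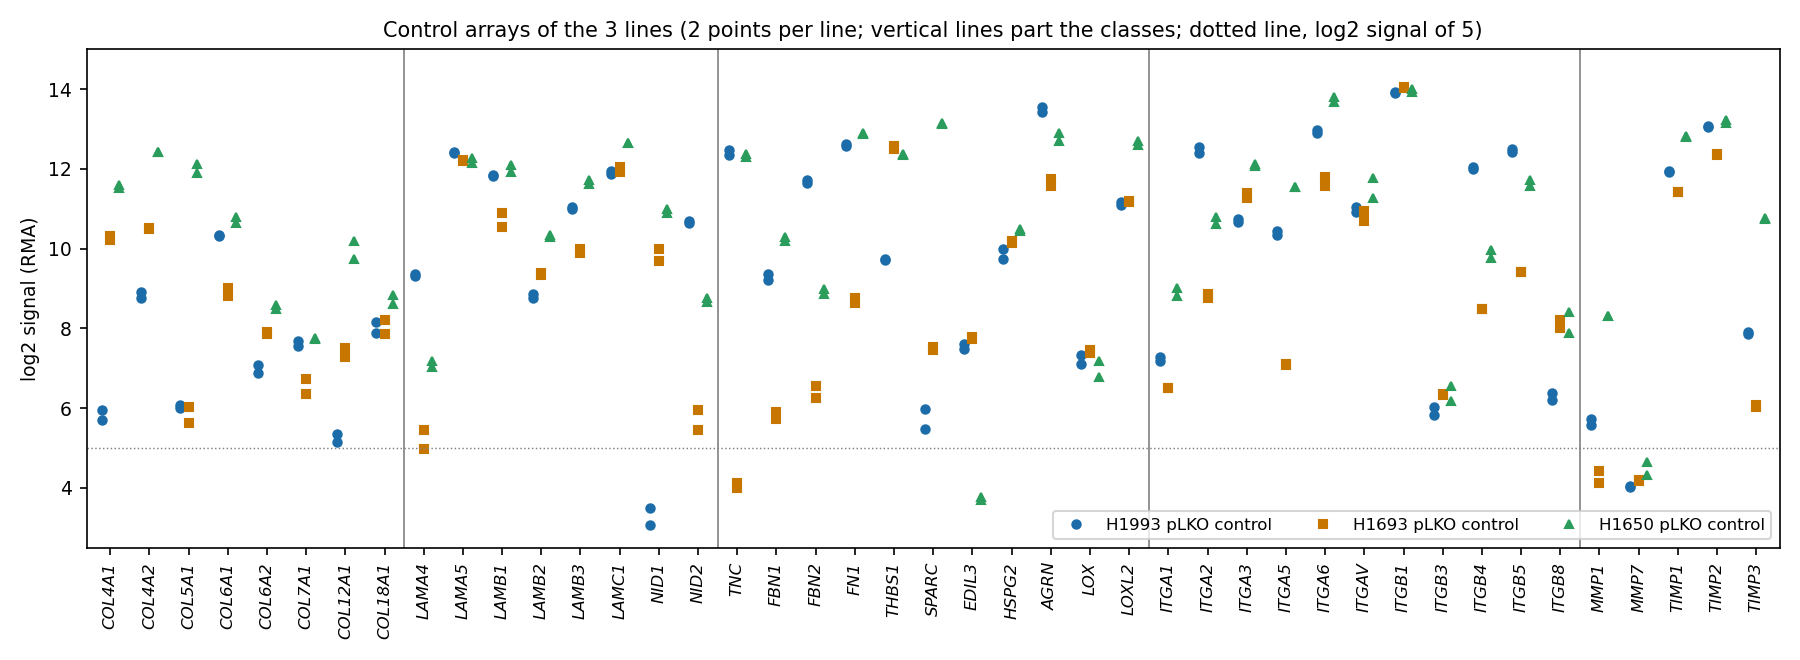
Log2 signal of the 43 genes (horizontal axis, ordered by class, classes divided by grey lines) on the pLKO control arrays of H1993, H1693 and H1650; each point is 1 array and the dotted line marks a log2 signal of 5. The H1650 mean is the highest for 30 genes, with both arrays above all other points for 28, and for 19 genes the highest and lowest line means lie at least 3 log2 units apart. The H1650 controls also differ from the others in RNA integrity, whose part was not tested.

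The list was chosen with earlier results of these data known, as was the wider list described below. Shares of listed genes beside those of all genes therefore describe the lists and are no test of them. After MARK2 knockdown more of the 43 genes rose than fell in H1993 and H1693. In H1993, 21 rose, 5 fell and 17 did not pass the test. The called share was 60.5%, where 33.4% of all genes were called. The share that rose was 48.8% against 18.9% of all genes, and the share that fell was 11.6% against 14.5%. The median change of the 43 genes was 0.35, and that of all genes was 0.02. In H1693, 20 rose, 6 fell and 17 did not pass, a called share of 60.5% where 33.0% of all genes were called, with 46.5% higher against 17.1% and 14% lower against 15.9%. The median change there was 0.25, against -0.02 for all genes. In H1650, 14 rose, 7 fell and 22 did not pass. One of the 14, MMP7, could enter the test only through the group in which it is high; without it 13 rose and 20 of 42 were called (47.6%). The called share of 48.8% stood beside 53.4% of all genes, and the median change of 0.11 beside 0.15, so the genes of the list were called no more often there than genes at large.

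Both H1993 and H1693 showed a rise for 13 genes, 30.2% of the list where 8.38% of all genes rose in both. These were COL6A1, COL6A2, COL12A1, LAMB2, LAMB3, TNC, FBN1, EDIL3, HSPG2, ITGA3, ITGA5, ITGB8 and TIMP2. Both fell for THBS1 and ITGA2, which is 4.65% of the list where 6.94% of all genes fell in both. A further 4 genes (9.30%, beside 2.80% of all genes) were called in opposite directions: COL4A1, COL4A2 and FBN2 rose in H1993 and fell in H1693, and LOXL2 did the reverse. In all 3 lines 6 genes rose, COL6A1, LAMB3, TNC, FBN1, ITGA5 and ITGB8 (14%, beside 5.42% of all genes), and none fell, beside 2.23% of all genes that fell in all 3. With the mean of all probe sets only FBN1 and ITGB8 of these 6 were called higher in all 3 lines, together with COL18A1 and EDIL3 (9.52% of 42 genes, beside 3.75% of all). COL6A1 (-0.01), LAMB3 (0.15) and ITGA5 (0.09) then lost the H1650 call, and TNC was called lower there (-0.40, limma adjusted p = 0.00024). The 3 comparisons do not share control arrays. The knockdown arrays lay above both control arrays for 31 genes in H1993 (72.1%, beside 34.7% of all genes) and for 26 in H1693 (60.5%, beside 32.9%). They lay below both control arrays for 6 genes in H1993 (14%, beside 29.0%) and 10 in H1693 (23.3%, beside 36.1%). In H1650 they lay above for 22 (51.2%, beside 51.1%) and below for 10 (23.3%, beside 22.4%).

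**Figure D2:**
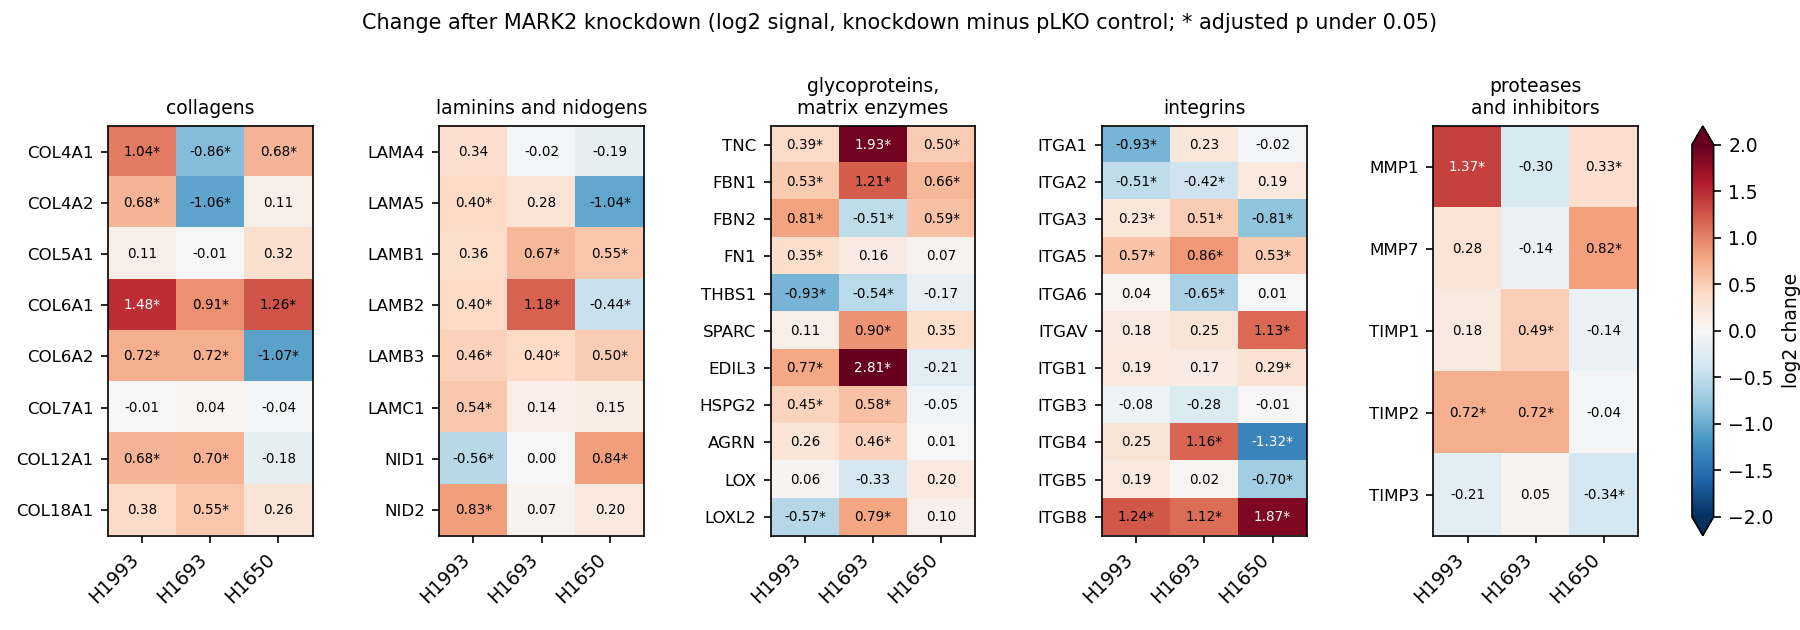
Change after MARK2 knockdown (log2 signal, knockdown minus control) of the 43 genes by class (panels) in the 3 lines (columns); colour and number give the change, a star marks an adjusted p under 0.05, and the colour scale ends at 2, which only EDIL3 in H1693 (2.81) exceeds. Rises outnumber falls in the H1993 and H1693 columns, and COL4A1, COL4A2, FBN2 and LOXL2 have opposite signs there.

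The summed signal of 7 markers of fibroblasts and mesenchymal cells was higher after knockdown in each line. The log2 of their summed signal was between 9.17 and 9.18 in the H1993 controls and between 9.53 and 9.67 in the knockdown arrays. It was between 12.26 and 12.30 against 12.94 and 13.00 in H1693, and between 11.15 and 11.23 against 11.51 and 11.56 in H1650. The brightest marker weighs most in such a sum. By mean signal it was COL1A1 in H1993, LUM in H1693 and COL3A1 in H1650. COL3A1 was not called in H1650 (0.52, limma adjusted p = 0.0621). In H1993 4 of the 7 markers reached the log2 signal of 5 in the controls and 6 did in the knockdown group. In H1693 6 of 7 and in H1650 5 of 7 reached it in both groups. DCN, a defining marker of fibroblasts, was never above 4.93, and 3 of the list, COL1A1, COL1A2 and COL3A1, are collagens themselves. LUM was called higher in every line, COL1A1 in H1993 and H1693, and COL3A1 in H1693. PDGFRB, COL1A2 and ACTA2 were called in no line, with changes between -0.16 and 0.23, and DCN was not tested. The part of these markers in the results was not tested.

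Among the 8 collagens measured, 5 rose and none fell in H1993 (median 0.68), 4 rose and 2 fell in H1693 (median 0.30), and 2 rose and 1 fell in H1650 (median 0.19). The chains of type VI collagen, which forms beaded filaments around cells, and of type IV collagen, the network of the basement membrane, had the largest changes. The type VI chains COL6A1 and COL6A2 rose in both H1993 and H1693, and the type IV chains COL4A1 and COL4A2 were called in opposite directions there.

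COL6A1 (chr21:45981770-46005048 in GRCh38.p14) encodes a chain of type VI collagen. It had signals of 10.34 and 10.31 on the H1993 control arrays and 11.91 and 11.70 on the knockdown arrays, a 2.79-fold rise (log2 change 1.48, SE 0.11, limma adjusted p = 1.2e-05). In H1693 the signals were 8.82 and 9.02 against 9.74 and 9.92, a 1.88-fold rise (limma adjusted p = 0.000229), and in H1650 they were 10.63 and 10.79 against 11.87 and 12.07 (change 1.26, limma adjusted p = 1.37e-05). Both knockdown arrays lay above both controls in each line. All 6 probe sets of COL6A1 had positive changes in H1993 (0.21 to 1.52) and 4 of 6 did in H1693 (-0.21 to 0.91). In H1650 only 2 of 6 did (-0.61 to 1.26), and with the mean of all its probe sets the call there was lost (-0.01, limma adjusted p = 0.954).

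COL6A2 lies on the same chromosome (chr21:46098112-46132848 in GRCh38.p14) and encodes the partner chain. Its signals were 6.87 and 7.08 against 7.66 and 7.73 in H1993 and 7.86 and 7.91 against 8.56 and 8.66 in H1693, with no overlap, and the change was 0.72 in both lines (limma adjusted p = 0.000266 and 0.000279). In H1650 COL6A2 fell, from 8.59 and 8.48 to 7.37 and 7.56, by 1.07 (limma adjusted p = 1.13e-05), where COL6A1 had risen. These calls rest on the brightest of 4 probe sets. With the mean of all 4 the changes were 0.24 in H1993 (limma adjusted p = 0.0521), 0.16 in H1693 (limma adjusted p = 0.173) and -0.21 in H1650 (limma adjusted p = 0.0560).

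COL4A1 and COL4A2 encode the chains that join in the most widespread type IV collagen. In GRCh38.p14 they lie head to head on chromosome 13, with COL4A1 (chr13:110148963-110307157) on the minus strand and COL4A2 (chr13:110307284-110513209) on the plus strand. Only 126 bases separate their start sites, so the stretch between them is the upstream sequence of both genes. It is shown because the pair moved together in H1993 and H1693; the capitals mark a CCAAT and a GGGCGG (GC box) on the plus strand, written from the COL4A1 start towards the COL4A2 start (chr13:110307158-110307283, RefSeq GRCh38.p14).
COL4A1/COL4A2: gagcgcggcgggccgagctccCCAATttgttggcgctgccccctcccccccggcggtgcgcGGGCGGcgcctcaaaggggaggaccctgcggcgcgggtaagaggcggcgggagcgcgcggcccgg
The letters are a description of the window and no test of a binding site.

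Both genes beside this stretch rose in H1993. COL4A1 went from 5.69 and 5.94 to 6.87 and 6.82, a change of 1.04 (SE 0.09, limma adjusted p = 2.47e-05), and COL4A2 from 8.77 and 8.92 to 9.55 and 9.50, a change of 0.68 (limma adjusted p = 0.000125). Both fell in H1693. There COL4A1 went from 10.31 and 10.22 to 9.38 and 9.43, to 55.1% of control (limma adjusted p = 7.94e-05), and COL4A2 from 10.49 and 10.52 to 9.39 and 9.49, to 47.8% of control (limma adjusted p = 1.12e-05). No arrays overlapped in these 4 comparisons, and all 3 probe sets of each gene had the sign given. The difference between the changes in H1993 and H1693 was 1.89 for COL4A1 (SE 0.13, 95% interval 1.61 to 2.18, limma adjusted p = 1.72e-05) and 1.75 for COL4A2 (SE 0.11, 95% interval 1.5 to 1.99, limma adjusted p = 1.52e-05). In H1650 COL4A1 rose by 0.68 (limma adjusted p = 0.000144). Its 3 probe sets there ran from -0.48 to 0.68, and the call was kept with their mean. The change of COL4A2 in H1650, 0.11, did not pass (limma adjusted p = 0.242). The 3 probe sets of COL4A2 ran from -1.99 to 0.11, and their mean was called lower (-1.04, limma adjusted p = 3.38e-06).

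COL12A1, a collagen that coats the surface of fibrils, had signals of 5.15 and 5.34 against 5.85 and 6.0 in H1993 and 7.51 and 7.29 against 8.09 and 8.10 in H1693. The knockdown arrays lay above the controls in both lines, with changes of 0.68 (limma adjusted p = 0.00444) and 0.70 (limma adjusted p = 0.00422). With the mean of its 4 probe sets both calls were lost (0.17, limma adjusted p = 0.185, and 0.22, limma adjusted p = 0.0833). COL18A1, the basement membrane collagen from which endostatin is cut, rose in H1693 (0.55, limma adjusted p = 0.0156), and the call was lost without control replicate 1 (0.38, limma adjusted p = 0.128) or knockdown replicate 1 (0.50, limma adjusted p = 0.0902). COL5A1, which regulates fibril width, and COL7A1, which anchors the basement membrane to the tissue under it, were called in no line, with changes between -0.04 and 0.32.

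Of the 8 laminins and nidogens, 5 rose and 1 fell in H1993 (median 0.40), 3 rose and none fell in H1693 (median 0.21), and 3 rose and 2 fell in H1650 (median 0.18). Laminins are trimers of an alpha, a beta and a gamma chain, and the 3 beta chains are described first. LAMB2, the beta chain of laminins in muscle, nerve and kidney basement membranes, went from 9.39 and 9.34 to 10.48 and 10.60 in H1693, a 2.26-fold rise (change 1.18, SE 0.09, limma adjusted p = 1.17e-05). In H1993 it went from 8.87 and 8.77 to 9.24 and 9.21 (0.40, limma adjusted p = 0.00524), and in H1650 it fell from 10.28 and 10.35 to 9.77 and 9.99 (-0.44, limma adjusted p = 0.00197). The arrays were separate in each line. The rise was larger in H1693 than in H1993, with a difference of -0.78 (SE 0.12, limma adjusted p = 0.00187).

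LAMB3, the beta chain of the laminin that anchors epithelial hemidesmosomes, was called higher in each line. Its signals were 11.00 and 11.04 against 11.50 and 11.45 in H1993 (0.46, limma adjusted p = 0.00201), 9.89 and 10 against 10.42 and 10.28 in H1693 (0.40, limma adjusted p = 0.00417) and 11.72 and 11.61 against 12.09 and 12.24 in H1650 (0.50, limma adjusted p = 0.000659). No arrays overlapped. The F test between lines did not pass (limma adjusted p = 0.779), and the 95% interval of the difference between H1993 and H1693 ran from -0.21 to 0.31. In H1650 the change of its other probe set was -0.20, and the mean of both (0.15) was not called (limma adjusted p = 0.203). LAMB1, a widely expressed beta chain, rose in H1693 (0.67, limma adjusted p = 0.00344) and H1650 (0.55, limma adjusted p = 0.00592), and its change in H1993 was 0.36 (limma adjusted p = 0.0610). In H1650 the change of its other probe set was -0.75, and the mean of both was -0.10 (limma adjusted p = 0.319). LAMC1, the common gamma chain, rose in H1993 (0.54, limma adjusted p = 0.000351), and the difference from H1693, where the change was 0.14, was 0.40 (limma adjusted p = 0.0201).

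NID2, which joins laminin and collagen networks as NID1 does, had signals of 10.63 and 10.69 against 11.50 and 11.49 in H1993 and rose by 0.83 (limma adjusted p = 0.00091). In H1693 its arrays overlapped, at 5.96 and 5.45 against 5.79 and 5.76. NID1 went from 10.90 and 11.00 to 11.91 and 11.68 in H1650 (0.84, limma adjusted p = 0.00101), where its 3 probe sets ran from -0.46 to 0.84 and the call was lost with their mean (0.03, limma adjusted p = 0.792). Its fall in H1993 lay below a log2 signal of 5 (3.49 and 3.06 against 2.67 and 2.75), and the call was lost without control replicate 1 (-0.35, limma adjusted p = 0.124) or knockdown replicate 1 (-0.52, limma adjusted p = 0.0813), and with the mean of all probe sets (-0.14, limma adjusted p = 0.287). LAMA5, the alpha chain of adult epithelial basement membranes, went from 12.28 and 12.14 to 10.93 and 11.41 in H1650, 48.8% of control (limma adjusted p = 0.000127). There the change of its other probe set was -0.08. The rise of LAMA5 in H1993 (0.40, limma adjusted p = 0.0419) was lost in 8 of the 12 fits that left out 1 array, those without any array of H1993 or H1693, over which it ran from 0.32 to 0.48, and with quantile normalisation (0.38, limma adjusted p = 0.0644). LAMA4, an alpha chain found in vessels and mesenchyme, was called in no line, with changes between -0.19 and 0.34.

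The 11 glycoproteins and matrix enzymes held the largest rises of the list in H1693, those of EDIL3 and TNC. Here 6 rose and 2 fell in H1993 (median 0.35), 7 rose and 2 fell in H1693 (median 0.58), and 3 rose and none fell in H1650 (median 0.10). EDIL3 (chr5:83940554-84384880 in GRCh38.p14) went from 7.79 and 7.72 to 10.56 and 10.58 in H1693, a 7.03-fold rise (change 2.81, SE 0.15, limma adjusted p = 2.99e-06), and all 5 of its probe sets had positive changes there, from 0.81 to 2.94. In H1993 it went from 7.61 and 7.49 to 8.42 and 8.21 (0.77, limma adjusted p = 0.0037). The rise in H1693 was larger, with a difference of -2.05 (SE 0.22, limma adjusted p = 0.000219). In H1650 it lay below 5 on all arrays, at 3.76 and 3.69 against 3.23 and 3.80, with overlap.

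TNC (chr9:115019575-115118157 in GRCh38.p14) was below a log2 signal of 5 in the H1693 controls, at 4.11 and 4.0, and reached 5.95 and 6.03 after knockdown, a change of 1.93 (SE 0.09, limma adjusted p = 1.7e-06). Its 4 probe sets there ran from -0.32 to 1.93, and their mean was 0.73, which stayed past the threshold. In H1993, where TNC was abundant, the signals were 12.48 and 12.34 against 12.92 and 12.67 (0.39, limma adjusted p = 0.00949), and in H1650 they were 12.30 and 12.36 against 12.83 and 12.82 (0.50, limma adjusted p = 0.00133). The H1993 call was lost without knockdown replicate 1 (0.26, limma adjusted p = 0.0764) or control replicate 2 (0.32, limma adjusted p = 0.0741), and in a fit of the H1993 arrays alone (limma adjusted p = 0.0534). In H1650 the sign turned with the mean of all probe sets (-0.40). The rise in H1693 was larger than that in H1993, with a difference of -1.54 (SE 0.13, limma adjusted p = 6.13e-05).

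FBN1, the main fibrillin of elastic microfibrils, rose in every line with separate arrays. It went from 9.22 and 9.36 to 9.85 and 9.78 in H1993 (0.53, limma adjusted p = 0.000746), from 5.89 and 5.72 to 7.02 and 7.01 in H1693 (1.21, limma adjusted p = 7.22e-06) and from 10.19 and 10.28 to 10.86 and 10.93 in H1650 (0.66, limma adjusted p = 9.38e-05). The 5 probe sets of FBN1 ran from -1.54 to 1.35 in H1650, with 4 positive, and the call there was kept with their mean. FBN2, its fetal relative, diverged between lines. It rose in H1993 from 11.64 and 11.73 to 12.57 and 12.43 (0.81, limma adjusted p = 0.000916) and in H1650 by 0.59 (limma adjusted p = 0.00344), and it fell in H1693 from 6.54 and 6.26 to 6.07 and 5.73 (-0.51, limma adjusted p = 0.0128). The fall was lost without control replicate 1 (-0.37, limma adjusted p = 0.107) or knockdown replicate 2 (-0.34, limma adjusted p = 0.110), while the difference between H1993 and H1693 was 1.32 (SE 0.18, limma adjusted p = 0.000899). In H1650 the 5 probe sets of FBN2 ran from -0.15 to 0.69, with 3 positive.

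THBS1, thrombospondin, which inhibits angiogenesis and can activate latent TGF-beta, was the glycoprotein that fell in both lines. Its signals were 9.71 and 9.74 against 8.88 and 8.71 in H1993 (-0.93, SE 0.07, limma adjusted p = 1.45e-05) and 12.58 and 12.50 against 11.96 and 12.04 in H1693 (-0.54, limma adjusted p = 0.000376). All 5 of its probe sets had negative changes in both lines. In H1650 the change of -0.17 did not pass (limma adjusted p = 0.0713). SPARC rose in H1693 from 7.52 and 7.45 to 8.50 and 8.28 (0.90, limma adjusted p = 0.00102), with all 8 probe sets positive, and its H1993 arrays overlapped, at 5.97 and 5.48 against 5.73 and 5.94.

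LOXL2, a lysyl oxidase that crosslinks collagen, had similar control levels in H1993 and H1693 and opposite changes. It fell from 11.10 and 11.18 to 10.57 and 10.57 in H1993 (-0.57, limma adjusted p = 0.000154) and rose from 11.20 and 11.17 to 11.95 and 12 in H1693 (0.79, limma adjusted p = 2.47e-05). All 4 probe sets had the sign given in each of these lines, and the difference was -1.36 (SE 0.09, limma adjusted p = 2.25e-05). LOX, the founding enzyme of that family, was called in no line, with changes between -0.33 and 0.20.

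HSPG2, the basement membrane proteoglycan perlecan, had signals of 9.75 and 10 against 10.29 and 10.35 in H1993 (0.45, limma adjusted p = 0.00882) and 10.19 and 10.15 against 10.74 and 10.77 in H1693 (0.58, limma adjusted p = 0.00212). The H1993 call was lost without control replicate 1 (0.33, limma adjusted p = 0.0750) or knockdown replicate 2 (0.42, limma adjusted p = 0.0523), and with the mean of both probe sets (0.19, limma adjusted p = 0.0534). AGRN, the proteoglycan agrin, rose in H1693 (0.46, limma adjusted p = 0.0116), which was lost without knockdown replicate 1 (0.47, limma adjusted p = 0.0512), control replicate 2 (0.37, limma adjusted p = 0.0935) or knockdown replicate 2 (0.45, limma adjusted p = 0.0621), and with the mean of both probe sets (0.23, limma adjusted p = 0.0747). FN1, fibronectin, rose in H1993 (0.35, limma adjusted p = 0.00821), which was lost without control replicate 1 (0.32, limma adjusted p = 0.0522) or knockdown replicate 1 (0.30, limma adjusted p = 0.0612). Its changes of 0.16 in H1693 and 0.07 in H1650 did not pass.

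**Figure D3:**
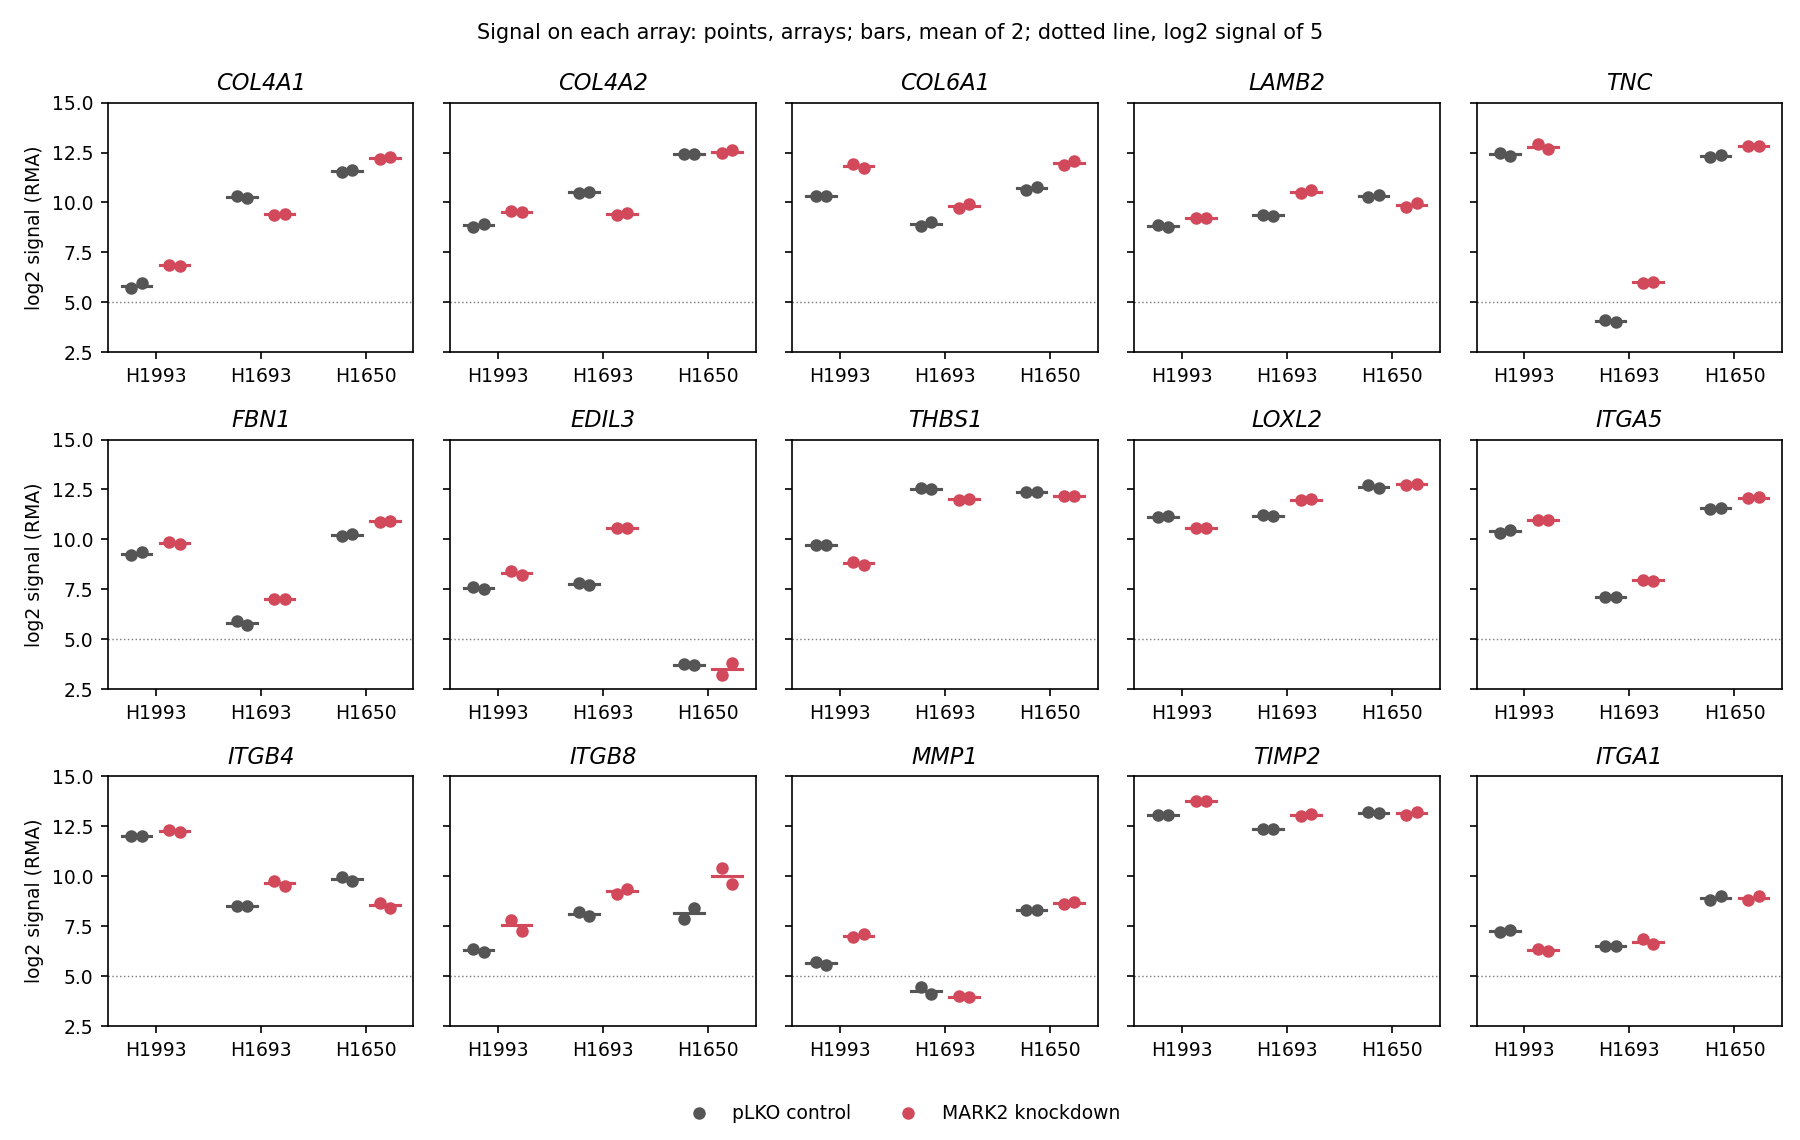
Log2 signal of 15 of the genes (panels) on each array of the 3 lines (horizontal axis), with pLKO control arrays in grey and MARK2 knockdown arrays in red; points are arrays, bars are the means of 2 arrays and the dotted line is a log2 signal of 5. COL6A1, FBN1, ITGA5 and ITGB8 lie higher after knockdown in every line, while COL4A1, COL4A2 and LOXL2 move in opposite directions in H1993 and H1693.

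Among the 11 integrins, 3 rose and 2 fell in H1993 (median 0.19), 4 rose and 2 fell in H1693 (median 0.23), and 4 rose and 3 fell in H1650 (median 0.01). ITGB8 (chr7:20329766-20415754 in GRCh38.p14), the partner of ITGAV in a receptor that activates latent TGF-beta, had the largest integrin rise in H1993 and H1650. It went from 6.37 and 6.21 to 7.80 and 7.27 in H1993 (1.24, SE 0.27, limma adjusted p = 0.00516), from 8.22 and 8.01 to 9.10 and 9.38 in H1693 (1.12, limma adjusted p = 0.00917) and from 7.88 and 8.40 to 10.39 and 9.63 in H1650 (1.87, limma adjusted p = 0.000247). The knockdown arrays lay above the controls throughout, and the F test between lines did not pass (limma adjusted p = 0.213, 95% interval of the H1993 minus H1693 difference -0.72 to 0.96). In H1993 the 4 probe sets of ITGB8 ran from -0.25 to 1.24, with 3 positive. Over the alternative fits its H1993 change ran from 0.42 to 1.51. The H1693 call was lost without control replicate 2 (1.01, limma adjusted p = 0.0639) or knockdown replicate 2 (0.98, limma adjusted p = 0.0691). ITGAV itself, the alpha chain that also pairs with ITGB3 and ITGB5, had changes of 0.18 in H1993 and 0.25 in H1693 that did not pass. In H1650 it went from 11.28 and 11.77 to 12.72 and 12.58 (1.13, limma adjusted p = 0.000137), which was lost with the mean of its 5 probe sets (0.29, limma adjusted p = 0.0576).

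ITGA5, the alpha chain of the main fibronectin receptor, rose in every line with small errors. Its signals were 10.34 and 10.45 against 10.98 and 10.95 in H1993 (0.57, SE 0.06, limma adjusted p = 0.000106), 7.11 and 7.09 against 7.98 and 7.93 in H1693 (0.86, limma adjusted p = 1.16e-05) and 11.54 and 11.55 against 12.05 and 12.10 in H1650 (0.53, limma adjusted p = 7.7e-05). No arrays overlapped, and in H1650 the call was lost with the mean of its 4 probe sets (0.09, limma adjusted p = 0.312). Its partner ITGB1 had changes of 0.19 in H1993 (limma adjusted p = 0.0512) and 0.17 in H1693 (limma adjusted p = 0.0752), which did not pass, and rose by 0.29 in H1650 (limma adjusted p = 0.00439), which was lost in a fit of the H1650 arrays alone (limma adjusted p = 0.0567).

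The collagen-binding alpha chains ITGA1 and ITGA2 fell where they were called. ITGA2 went from 12.40 and 12.54 to 11.91 and 12.01 in H1993 (-0.51, limma adjusted p = 0.00514) and from 8.85 and 8.75 to 8.35 and 8.42 in H1693 (-0.42, limma adjusted p = 0.015). The arrays were separate, and the H1693 call was lost without control replicate 1 (-0.37, limma adjusted p = 0.0921) or knockdown replicate 1 (-0.38, limma adjusted p = 0.0866). ITGA1 fell in H1993 from 7.19 and 7.29 to 6.35 and 6.26 (-0.93, limma adjusted p = 0.000154). Its change in H1693, from 6.5 and 6.5 to 6.85 and 6.6, was 0.23 and did not pass, and the difference between the lines was -1.16 (SE 0.16, limma adjusted p = 0.000777).

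The laminin-binding chains ITGA3, ITGA6 and ITGB4 went different ways. ITGB4, the hemidesmosome chain that pairs with ITGA6, rose in H1693 from 8.49 and 8.49 to 9.78 and 9.51 (1.16, SE 0.11, limma adjusted p = 5.39e-05), with all 8 probe sets positive (0.15 to 1.16). It fell in H1650 from 9.96 and 9.77 to 8.66 and 8.43 (-1.32, limma adjusted p = 9.65e-06), where the 8 probe sets ran from -1.32 to 0.11. In H1993 its change of 0.25 did not pass. ITGA6 fell in H1693 by 0.65 (limma adjusted p = 0.000883), with all 3 probe sets between -0.78 and -0.65, and its changes of 0.04 in H1993 and 0.01 in H1650 did not pass. In H1650 the 3 probe sets of ITGA6 ran from -2.5 to 0.03, and their mean was called lower (-0.82, limma adjusted p = 6.88e-06). ITGA3 went from 10.67 and 10.75 to 10.89 and 10.99 in H1993 (0.23, limma adjusted p = 0.0308), from 11.39 and 11.27 to 11.84 and 11.84 in H1693 (0.51, limma adjusted p = 0.00047) and from 12.11 and 12.08 down to 11.24 and 11.32 in H1650 (-0.81, limma adjusted p = 1.18e-05). In H1650 its 3 probe sets ran from -0.81 to 0.03. The H1993 call was lost without control replicate 1 (0.19, limma adjusted p = 0.157), control replicate 2 (0.27, limma adjusted p = 0.0581) or knockdown replicate 2 (0.18, limma adjusted p = 0.176), with the mean of its 3 probe sets (limma adjusted p = 0.991) and in a fit of the H1993 arrays alone (limma adjusted p = 0.085). ITGB5 fell in H1650, from 11.72 and 11.58 to 10.76 and 11.15 (-0.70, limma adjusted p = 0.000924), and ITGB3, the beta chain of the platelet and vitronectin receptors, was called in no line.

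The 5 proteases and inhibitors gave 2 rises and no fall in H1993 (median 0.28), 2 rises and no fall in H1693 (median 0.05), and 2 rises, those of MMP1 and MMP7, and 1 fall in H1650 (median -0.04). MMP1, the interstitial collagenase, went from 5.72 and 5.58 to 6.94 and 7.1 in H1993, a 2.58-fold rise (1.37, SE 0.11, limma adjusted p = 1.51e-05). In H1693 its signals were below 5, at 4.43 and 4.11 against 4.0 and 3.95 (-0.30, limma adjusted p = 0.0598), and the difference between the lines was 1.67 (SE 0.15, limma adjusted p = 9.26e-05). Its rise in H1650 (0.33, limma adjusted p = 0.0249) was lost without control replicate 1 (0.33, limma adjusted p = 0.0818), control replicate 2 (0.34, limma adjusted p = 0.0770) or knockdown replicate 2 (0.28, limma adjusted p = 0.118), and with quantile normalisation (0.29, limma adjusted p = 0.0502).

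TIMP2, a metalloproteinase inhibitor that also takes part in the activation of pro-MMP2, rose by 0.72 in both H1993 and H1693. The signals were 13.06 and 13.08 against 13.79 and 13.78 (limma adjusted p = 4.97e-05) and 12.36 and 12.35 against 13.03 and 13.12 (limma adjusted p = 5.39e-05), with both probe sets positive in each line. In H1650 its arrays overlapped. TIMP1 rose in H1693 (0.49, limma adjusted p = 0.000859). TIMP3, the inhibitor that stays bound to the matrix, fell in H1650 (-0.34, limma adjusted p = 0.0097), and the call was lost without control replicate 1 (-0.31, limma adjusted p = 0.0503). MMP7, matrilysin, reached the log2 signal of 5 only on the H1650 knockdown arrays, at 5.23 and 5.38 against 4.65 and 4.33, so it could enter the test only through the group in which it is high. Of the 43 genes, 37 reached that signal on all 12 arrays; besides MMP7 the exceptions were LAMA4, TNC, NID1, EDIL3 and MMP1.

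The change differed between the 3 lines for 30 of the 43 genes by the F test (69.8%, beside 54.9% of all genes). Between H1993 and H1693, the lines with a measured reduction of MARK2 and level GAPDH controls, it differed for 18 (41.9%, beside 22.1%). The difference was positive, with the H1993 change above the H1693 change, for COL4A1, COL4A2, COL6A1, MMP1, FBN2, NID2, ITGA6 and LAMC1. It was negative, with the H1693 change above the H1993 change, for EDIL3, TNC, LOXL2, ITGA1, ITGB4, SPARC, LAMB2, FBN1, THBS1 and ITGA5. For TIMP2, COL6A2, COL12A1 and LAMB3 the difference was at most 0.05 in size and its 95% intervals all included 0, the widest from -0.46 to 0.44 for COL12A1.

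Of these 18 differences, 11 passed in every one of 20 alternative fits: COL4A1, COL4A2, EDIL3, TNC, LOXL2, MMP1, ITGA1, FBN2, LAMB2, ITGB4 and ITGA6. LAMB2 and ITGA1 have 1 probe set each, so the fit with the mean of all probe sets could not change their values. FBN1 was lost with the mean of all probe sets (-0.19, limma adjusted p = 0.155). The other 6 were lost when single arrays were left out. NID2 was lost without H1993 control replicate 1 (0.73, limma adjusted p = 0.0533) or H1693 knockdown replicate 2 (0.75, limma adjusted p = 0.0536). LAMC1 was lost without replicate 1 of any of the 4 groups of these lines (0.34 to 0.37, limma adjusted p from 0.0684 to 0.0831). SPARC was lost without H1993 knockdown replicate 1 (-0.69), H1693 control replicate 1 (-0.83), H1693 knockdown replicate 1 (-0.68) or H1693 control replicate 2 (-0.76). COL6A1 was lost without either H1993 control array (0.59 and 0.56), H1993 knockdown replicate 1 (0.47), H1693 knockdown replicate 1 (0.48) or H1693 control replicate 2 (0.47). THBS1 was lost without any replicate 2 of these lines (-0.37 to -0.30) or H1993 control replicate 1 (-0.40). ITGA5 was lost without any H1993 or H1693 array but H1993 control replicate 1 (-0.31 to -0.23), or without either H1650 control array (-0.29), and its adjusted p was 0.057 with no filter on low signal and 0.051 without the H1650 arrays (limma). With the mean of all probe sets the differences of THBS1 (0.12) and ITGA5 (0.01) turned sign.

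**Figure D4:**
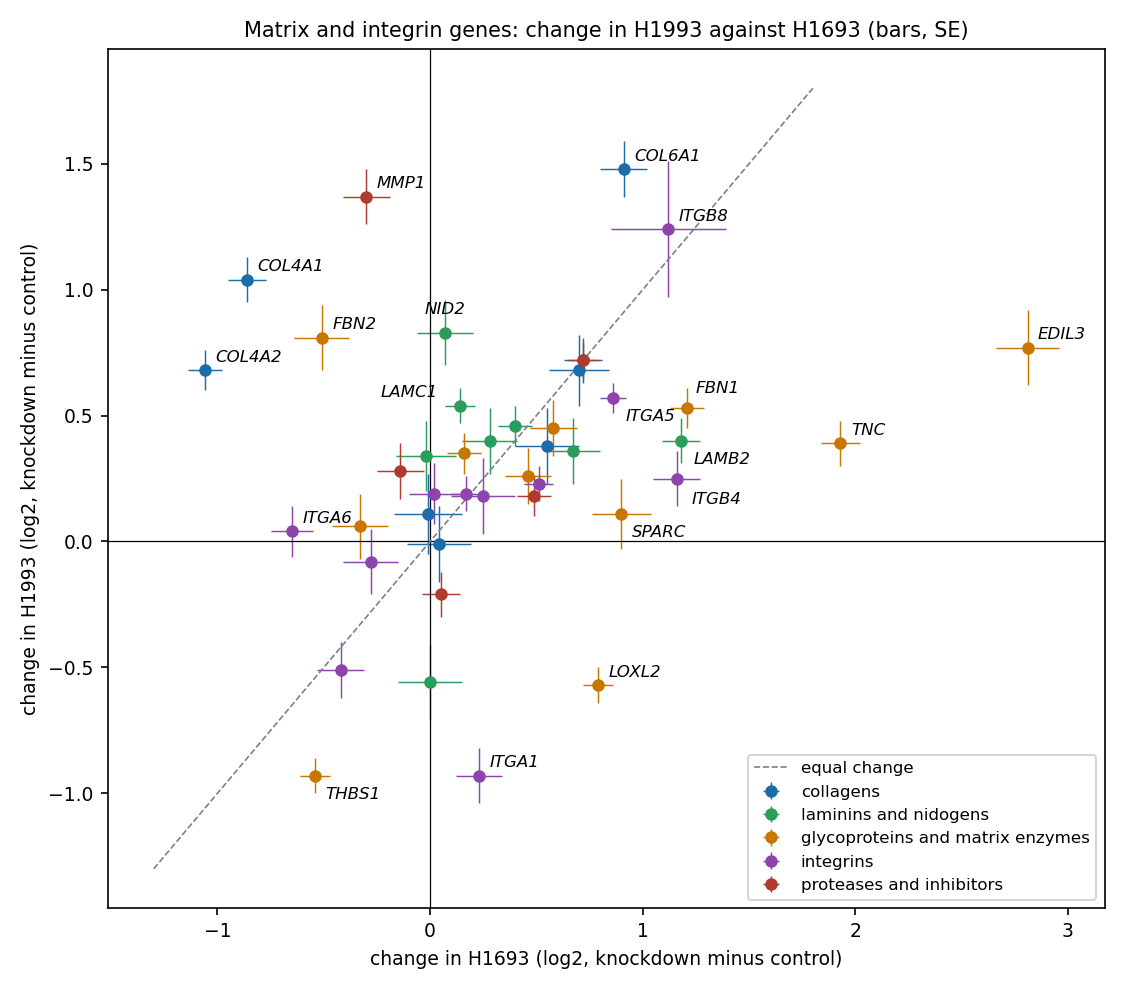
Change after MARK2 knockdown in H1693 (horizontal) against H1993 (vertical) for the 43 genes, in log2 signal; points are coloured by class, bars are SE of the change and the dashed line marks equal change. COL4A1, COL4A2 and FBN2 lie in the upper left, LOXL2 in the lower right, and EDIL3 (2.81) and TNC (1.93) far to the right.

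Probe sets of the same gene were used to judge how far the changes depend on the stretch of transcript read. Of the 43 genes, 39 have several probe sets. All probe sets of a gene had the same sign for 24 of these in H1993 and 24 in H1693, but for 6 in H1650. Among called genes the numbers were 18 of 24 in H1993, 18 of 25 in H1693 and 4 of 19 in H1650, where the 4 were ITGB8, MMP1, LAMA5 and TIMP3. The median SD of the changes among probe sets of a gene was 0.21, 0.24 and 0.55. The H1650 arrays also differ in their 3′ minus 5′ control signals between groups (means of 2.68 and 6.82 for GAPDH).

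**Figure D5:**
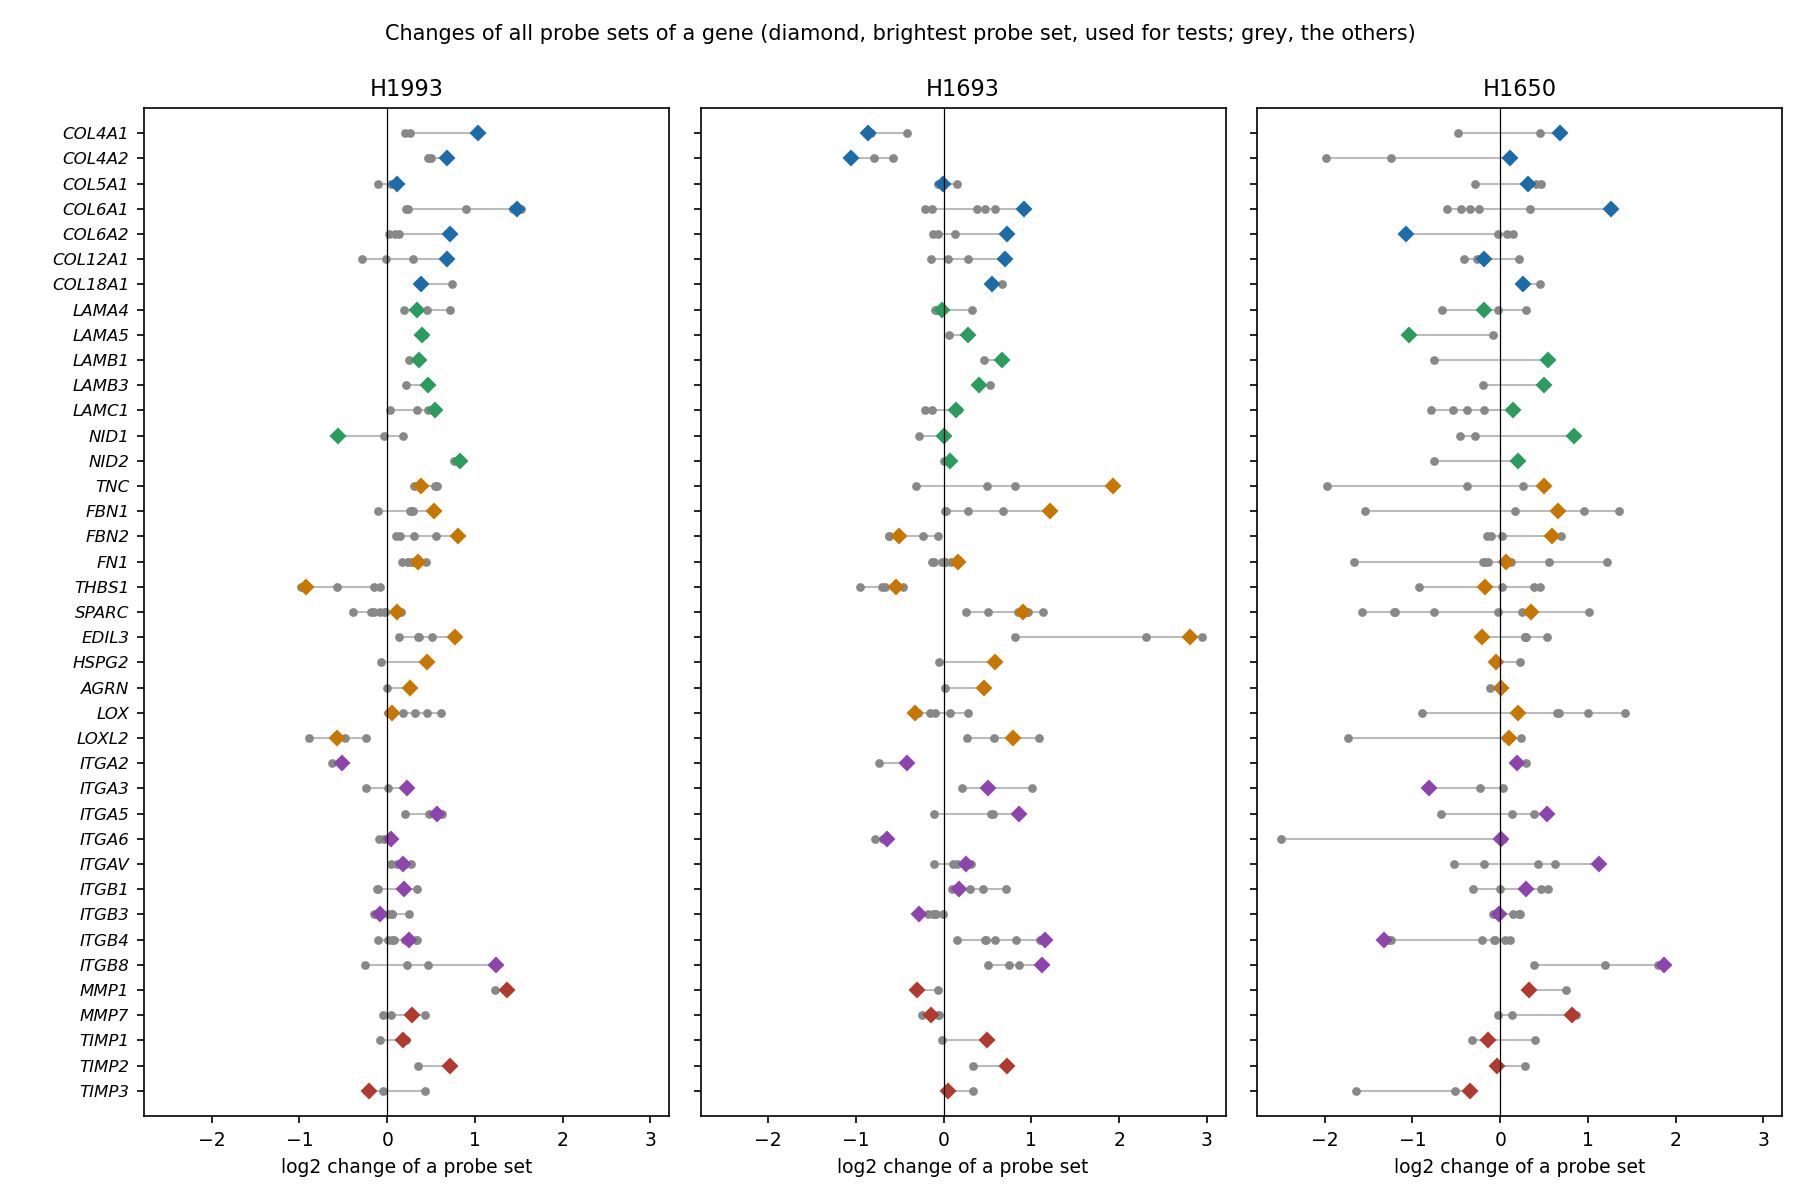
Change (log2 signal) of every probe set of the 39 genes with several, in H1993, H1693 and H1650; the diamond is the brightest probe set, used in the tests and coloured by class, grey points are the others and the grey line spans them. In H1650 the probe sets of most genes lie on both sides of 0, while in H1993 and H1693 those of 24 genes lie on 1 side.

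A wider list of matrix and adhesion genes, 95 of them tested, had lower medians than the 43 genes in H1993 and H1693. In H1993 31 rose (32.6%, beside 18.9% of all genes) and 12 fell (12.6%, beside 14.5%; median 0.04). In H1693 19 rose (20%, beside 17.1%) and 10 fell (10.5%, beside 15.9%; median 0.06), and in H1650 33 rose (34.7%, beside 36.7%) and 18 fell (18.9%, beside 16.7%; median 0.15). Among those that rose most were COL4A5, a type IV chain of kidney and lung basement membranes, in H1693 (8.09 and 7.95 against 9.11 and 9.31; 1.19, limma adjusted p = 6.73e-05), and TGFBI, an adhesion protein induced by TGF-beta, in H1693 (6.97 and 6.87 against 7.95 and 7.96; 1.04, limma adjusted p = 6.94e-06). COL4A5 did not fall in H1693 with COL4A1 and COL4A2. PLAU, the urokinase protease, rose in H1993 from 7.52 and 7.67 to 8.50 and 8.59 (0.95, limma adjusted p = 1.01e-05), as did PLOD1, a collagen lysyl hydroxylase (0.96, limma adjusted p = 0.00101).

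The matricellular genes CCN2 and CCN1, often used as readouts of YAP and TEAD activity, fell in H1993. CCN2 went from 9.24 and 9.26 to 7.74 and 7.42 (-1.67, limma adjusted p = 3.41e-06) and CCN1 from 10.87 and 10.85 to 10.19 and 9.96 (-0.79, limma adjusted p = 6.42e-05). In H1693 CCN2 rose by 0.30 (limma adjusted p = 0.0479), and the change of CCN1 was 0.19 (limma adjusted p = 0.108). MMP9, a gelatinase, fell in H1693 from 9.08 and 8.94 to 7.55 and 7.77 (-1.35, limma adjusted p = 8.91e-06). FERMT1, the epithelial kindlin that activates integrins, fell in H1993 (-0.76, limma adjusted p = 0.00638) and in H1693 (-0.73, limma adjusted p = 0.00845). In H1650 the stromelysin genes MMP3 (1.96, limma adjusted p = 5.45e-07) and MMP10 (1.56, limma adjusted p = 7.09e-05) rose, and ADAM10, a membrane sheddase, fell by 2.46 (limma adjusted p = 7.63e-08). The H1650 groups also differed in RNA integrity (GAPDH means of 2.68 in controls and 6.82 after knockdown), whose part was not tested. MARK2 was not called lower there (-0.29, limma adjusted p = 0.156). Agreement among probe sets was examined for the main list, not for the genes of the wider list. In H1650 it held for 4 of 19 called genes of the main list with several probe sets.

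RefSeq promoter windows of 300 bases (250 before to 50 after a start site) were given for 38 of the 46 genes, 50 windows in all. The GC box letters GGGCGG were in 38 of the 50 windows (76%) on either strand, beside 45% of all 35116 windows. The AP-1 letters TGANTCA were in 4 (8%, beside 7.71%), the TEAD letters GGAATG in 6 (12%, beside 14%) and CCAAT, added after the sequences were seen, in 14 (28%, beside 34.6%). None of these motifs contains another, and the COL4A1 and COL4A2 windows share 226 bases. The TEAD letters were in windows of SPARC, COL12A1, ITGB1, ITGA5, THBS1 and FBN1, and the 3 of these called in the same direction in both H1993 and H1693 with the letters in the 100 bases before the start are shown, FBN1 and ITGA5 as genes that rose and THBS1 as a gene that fell. Capitals mark GGAATG; each stretch is written 5′ to 3′ on the gene's strand and ends at the base before the start (RefSeq GRCh38.p14: FBN1 chr15:48644971-48645070, minus strand; THBS1 chr15:39580979-39581078, plus strand; ITGA5 chr12:54419267-54419366, minus strand).
FBN1: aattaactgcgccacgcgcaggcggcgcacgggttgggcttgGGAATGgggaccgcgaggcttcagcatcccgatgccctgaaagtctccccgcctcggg
THBS1: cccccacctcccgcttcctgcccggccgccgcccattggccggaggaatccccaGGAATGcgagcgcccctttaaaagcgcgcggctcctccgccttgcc
ITGA5: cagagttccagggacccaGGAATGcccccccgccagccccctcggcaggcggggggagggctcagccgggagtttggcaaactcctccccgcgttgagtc
The match begins 58 bases before the start in FBN1, 46 in THBS1 and 82 in ITGA5, and genes of both directions carry it.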

How the data were processed

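Biotin-labelled RNA of the 12 cultures was hybridised to Affymetrix arrays, per the labels' protocols. Per the submitters' processing notes the authors used RMA in Expression Console, so the deposited signals are log2 values that were background-corrected, brought to one distribution over arrays and summarised per probe set; software versions are not stated there. RMA compresses the changes of dim genes. Array medians were between 7.13 and 7.32, and the number of arrays limits the precision.

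Of 49395 probe sets, 44994 had 1 gene symbol in the platform annotation, 1832 had several and 2569 had none. Tests used the 44988 with 1 symbol that were not controls (102 controls), of which 44961 matched a gene ID in the RefSeq table of GRCh38.p14. Each gene took the values of its brightest probe set on average, and it was tested where 2 or more arrays reached 5 on the log2 scale.

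The 6 group means were estimated together from the 12 arrays (limma 3.58.1, R 4.3.3, lmFit and eBayes, with 6 residual and 3.52 prior degrees of freedom). All tests are two-sided, and p-values were adjusted by Benjamini and Hochberg's method over 16205 genes, with a threshold of 0.05. The pipeline was tested on simulated data. Alternatives were the mean of all probe sets, other floors, quantile normalisation, trend and robust moderation, fewer arrays and a replicate block. The same replicate numbers did not pair the arrays: deviations of same-numbered arrays correlated at 0.29 in H1993, -0.18 in H1693 and -0.11 in H1650. No arrays of a group were duplicates, with at most 0.0992% of probe sets identical.

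Members and lists were chosen with earlier results of these data known. MARK2 comes first. Genes are described with their array values where they are among the 10 largest called changes of a line with separate arrays, called in the same direction in H1993 and H1693, or among the 8 smallest p-values of the difference between those lines; 29 genes meet this rule, others are given by ranges, counts or changes. From the wider list, up to 4 called genes per line and direction with the largest change could be named.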

Additional observations from a re-analysis of the deposited data

Results flagged for a closer look

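For 18 genes the change after knockdown differed between H1993 and H1693 in limma's test of the difference itself (adjusted p under 0.05 over all genes tested). Differences are the H1993 change minus the H1693 change in log2 signal.

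Among collagens they were 1.89 for COL4A1, 1.75 for COL4A2 and 0.57 for COL6A1. Among laminins and nidogens they were -0.78 for LAMB2, 0.76 for NID2 and 0.40 for LAMC1. Among glycoproteins and matrix enzymes the values were -2.05 for EDIL3, -1.54 for TNC, -1.36 for LOXL2, 1.32 for FBN2, -0.79 for SPARC, -0.68 for FBN1 and -0.39 for THBS1. Among integrins they were -1.16 for ITGA1, -0.91 for ITGB4, 0.69 for ITGA6 and -0.29 for ITGA5, and among proteases 1.67 for MMP1. COL4A1, COL4A2, FBN2 and LOXL2 were called in opposite directions. THBS1, COL6A1, LAMB2, FBN1, TNC, EDIL3 and ITGA5 moved the same way in both lines and differed in size in this fit. The difference in size passed in all 20 alternative fits for LAMB2, TNC and EDIL3. It passed in 19 for FBN1, 14 for COL6A1, 13 for THBS1 and 6 for ITGA5. With the mean of all probe sets it turned sign for THBS1 (0.12) and ITGA5 (0.01).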

How the results depend on the processing

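The counts of genes higher and lower stayed within 1.5 times the reported count in all alternatives but 1: with the mean of all probe sets 13 genes were lower in H1650, in place of 7, and 10 higher, in place of 14. With that setting 10 changes in H1650 that were called in either setting turned sign (and 5 called in neither), to -1.04 for COL4A2, -0.01 for COL6A1, -0.10 for LAMB1, -0.35 for LAMC1, -0.28 for NID2, -0.40 for TNC, -0.40 for SPARC, 0.23 for EDIL3, -0.33 for LOXL2 and -0.82 for ITGA6, and so did the H1993 minus H1693 differences of THBS1 (0.12) and ITGA5 (0.01). The cause was not tested. All alternatives kept 18 of 26 calls in H1993, 19 of 26 in H1693 and 10 of 21 in H1650. The kept calls include those of LAMB2, ITGA1 and ITGB5. These genes have 1 probe set each, so the mean of all probe sets could not change their values. They also include MMP7 in H1650, which could be tested in only 18 of the 20 alternatives there. Leaving out 1 array at a time gave 17 to 23 genes higher and 4 to 6 lower in H1993, 18 to 21 and 4 to 7 in H1693, and 13 to 15 and 7 to 9 in H1650. Quantile normalisation moved the median of all genes in H1650 from 0.15 to 0.04 and the split of all genes there from 5954 higher and 2702 lower to 4737 and 3468. In H1993 it moved from 3064 and 2354 to 2757 and 2867. The listed genes were then 22 higher and 6 lower in H1993, 20 and 7 in H1693, and 13 and 8 in H1650.

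With the replicate number as a block, 19 genes were higher and 5 lower in H1993, 20 and 6 in H1693, and 14 and 7 in H1650, and 15 differed between H1993 and H1693. The block ended the H1993 calls of LAMA5 (limma adjusted p = 0.0792) and ITGA3 (limma adjusted p = 0.0607) and the differences of LAMC1 (0.069), THBS1 (0.0691) and ITGA5. A crossed pairing in H1693 and H1650, chosen after seeing the data, gave 26 and 5, 20 and 6, and 17 and 7.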

Other observations

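Some genes used as cell type markers moved beside the matrix genes; they are named here after their values were seen. LUM, the collagen-binding proteoglycan lumican, went from 3.45 and 4.03 to 5.81 and 5.67 in H1993 (change 2.00, SE 0.16, limma adjusted p = 1.36e-05) and from 10.93 and 10.90 to 11.80 and 11.92 in H1693 (0.95, limma adjusted p = 0.0012). In H1650 it was below a log2 signal of 5 on all arrays, at 3.39 and 3.27 against 4.03 and 3.93. It was called higher there (0.65, limma adjusted p = 0.00539). CDH1, the epithelial adhesion protein E-cadherin, rose from 12.68 and 12.63 to 13.56 and 13.45 in H1993 (0.85, limma adjusted p = 1.67e-05) and from 12.16 and 12.05 to 12.84 and 12.82 in H1693 (0.72, limma adjusted p = 4.63e-05). In H1650 its change was 0.03 (limma adjusted p = 0.725). KRT8, an epithelial keratin, went from 11.90 and 11.43 to 7.0 and 7.39 in H1650, by -4.47 (limma adjusted p = 1.04e-07), and its changes of 0.08 in H1993 and 0.05 in H1693 did not pass. The other epithelial markers were mixed. In H1650 KRT18 (-0.85), KRT19 (-0.17) and KRT7 (-0.24) were called lower and EPCAM higher (0.45). KRT19 was called higher in H1993 (0.27) and KRT7 lower in H1693 (-0.33). The H1650 groups also differ in the 3′ minus 5′ control signals given above, whose part was not tested.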
